A study of Mus musculus with 2 samples.

Results

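The cytosolic ribosomal protein genes were taken as every gene of the deposited gene list whose symbol began with Rpl or Rps, without the S6 kinase genes (Rps6k) and without symbols marked as pseudogenes by "-ps". This gave 94 of 55414 genes. The set held 55 Rpl genes of the large subunit, 38 Rps genes of the small subunit, and Rps19bp1, which the rule admits by its symbol although it encodes a binding partner of RPS19 and not a ribosomal protein. Of the 94, 77 were the canonical genes (46 large, 31 small) and 16 were paralogs or retrotransposed copies. The annotation called 88 protein-coding and 6 pseudogenes.

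The samples were nuclei of C2C12, an immortalised mouse myoblast line, profiled with droplet-based Chromium v3 chemistry, which primes reverse transcription on poly(A). Nuclei were isolated from cells near confluence and fixed in methanol. In one library the nuclei were incubated with yeast poly(A) polymerase, which adds poly(A) to free RNA 3′ ends (the in situ polyadenylated library). The other received neither the enzyme nor the warm incubation with it, its nuclei being counted straight after the wash (the standard library), so that enzyme and incubation cannot be told apart. Each condition had 1 library, so no difference between libraries had a replicate check, no p-value was computed, and library and treatment cannot be told apart. All intervals given below are 95% intervals that cover counting error only. Those of STAR over kallisto ratios treat 2 counts of the same molecules as independent, which they are not, and are descriptive only. The 2 libraries were each deposited as 2 count matrices, one from kallisto, with all barcodes, and one from STAR, with a subset of barcodes.

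A barcode was taken as a nucleus when it held over 750 kallisto UMIs, the unique molecular identifiers that mark single captured molecules, and under 5% mitochondrial UMIs. This left 1335 in situ polyadenylated nuclei with 1974403 UMIs (median 1088 per nucleus) and 1123 standard nuclei with 1382984 UMIs (median 996). No retained nuclear barcode was shared between the libraries, although 50944 barcodes were shared among all kallisto barcodes. The 6 myoblast markers summed to 1353 and 2086 UMIs in the in situ polyadenylated and standard nuclei and none of them was at 0. The 7 markers of differentiated muscle summed to 144 and 128 UMIs. The 5 markers of cells foreign to the line summed to 10 and 39 UMIs, with 4 and 3 of them at 0.

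Cytosolic ribosomal proteins clothe the ribosomal RNAs of the large and the small subunit, and their mRNAs are among the most abundant of a growing cell. The mRNAs are made by RNA polymerase II, are polyadenylated, and carry a 5′ terminal oligopyrimidine (TOP) tract through which their translation follows nutrient signals. They are translated in the cytoplasm, and the proteins return to the nucleus to be assembled in the nucleolus. Many ribosomal protein genes also carry small nucleolar RNAs (snoRNAs) in their introns, which are cut out of the spliced intron and guide the modification of ribosomal RNA.

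Sequences of 2 kinds bear on the counts of these genes. The first is the near identity of Rps3a1, which encodes the small subunit protein eS1 (RPS3A), and its copies. Over the 792 coding bases of Rps3a1, the intronless copy Rps3a3 was identical at 783 and different at 9 (98.9% identity), and Rps3a2 was different at 4 (99.5%). The lines below give bases 167 to 266 of the coding sequence from the GRCm39 genome, at chr3:86048634-86048733 on the minus strand for Rps3a1 and at chr13:108807303-108807402 on the plus strand for Rps3a3. They are shown because reads from this stretch can be assigned to one gene or the other only through the 2 bases in capitals.
Rps3a1: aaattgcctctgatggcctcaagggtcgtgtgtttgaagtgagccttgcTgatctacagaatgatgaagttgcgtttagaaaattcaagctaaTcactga
Rps3a3: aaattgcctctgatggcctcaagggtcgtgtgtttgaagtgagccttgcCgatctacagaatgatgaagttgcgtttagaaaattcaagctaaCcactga

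The second is the set of snoRNA genes nested within members. The 5 with the most UMIs in the in situ polyadenylated nuclei are given below from GRCm39, since they are separate RNAs transcribed from the same loci. Capitals mark the first TGATG within the first 45 bases, the core of box C, and the last CTGA within the last 25 bases, which is box D, searched on the snoRNA strand. Snord72 lies in Rpl37 (chr15:5147886-5147966, plus strand), Snord43 in Rpl3 (chr15:79967048-79967155, minus), Snord35a in Rpl13a (chr7:44775770-44775859, minus), Gm23969 in Rpl7a (chr2:26801273-26801346, plus) and Snord42a in Rpl23a (chr11:78072125-78072189, minus).
Snord72: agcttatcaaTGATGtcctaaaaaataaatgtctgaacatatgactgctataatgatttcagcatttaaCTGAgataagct
Snord43: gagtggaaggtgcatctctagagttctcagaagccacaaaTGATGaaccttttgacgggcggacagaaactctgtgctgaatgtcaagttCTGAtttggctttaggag
Snord35a: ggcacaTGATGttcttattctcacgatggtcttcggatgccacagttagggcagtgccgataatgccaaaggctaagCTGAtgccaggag
Gm23969: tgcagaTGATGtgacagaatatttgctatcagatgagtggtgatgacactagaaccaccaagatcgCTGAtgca
Snord42a: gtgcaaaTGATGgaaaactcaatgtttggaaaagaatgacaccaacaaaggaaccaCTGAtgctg
Both letter strings were found in 36 of the 60 snoRNA genes nested in members (60%) and in 377 of the 1507 annotated snoRNA genes (25.0%).

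The first comparison asked how much of the RNA of a nucleus came from ribosomal protein genes in each library. In the kallisto matrix they held 4163 UMIs of the in situ polyadenylated nuclei, or 0.211% (Clopper-Pearson interval 0.204 to 0.217), and 7155 UMIs of the standard nuclei, or 0.517% (0.505 to 0.529). The share was thus lower in the in situ polyadenylated nuclei by a log2 ratio of -1.29 (-1.35 to -1.24). The median protein-coding gene, over the 2117 such genes that reached 50 UMIs in both libraries, was at -1.19. Against that gene the ribosomal protein share stood at a log2 of -0.10 (-0.16 to -0.05). By kallisto, ribosomal protein genes as a set therefore lay close to the shift of the median protein-coding gene. Summed, all protein-coding genes held 29.1% of UMIs in the in situ polyadenylated and 55.5% in the standard nuclei. This is a log2 of -0.93 (-0.94 to -0.93), so the ribosomal protein share was lowered by more than that sum. In the STAR matrix of the same nuclei the median was taken over 7752 protein-coding genes. Against it the ribosomal protein share turned to a log2 of 0.62 (0.58 to 0.66). Log2 ratios called relative below have the median protein-coding gene of the same comparison subtracted.

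Single genes were compared where both counts together reached 20 UMIs, which 71 of the 94 members did, and a gene was counted as higher or lower when its relative ratio was at least 2-fold. The other 23 held fewer UMIs, among them 8 with none in either library's nuclei (Rpl3l, Rpl6l, Rpl10l, Rpl32l, Rpl39l, Rps4l, Rps12l1 and Rps27rt) and, these included, 10 with under 3 in each. The relative median of the 71 was -0.22 with quartiles of -0.60 and 0.26, beside -0.22 over all 8430 genes compared and -0.21 over protein-coding genes. Of the 71, 5 were at least 2-fold higher in the in situ polyadenylated nuclei, where the background over all genes was 3.63%, and 7 were at least 2-fold lower, where the background was 11.6%. The plot of both libraries shows the members strung along the line of the median protein-coding gene, with Rpl7a far above it.

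**Figure D1:**
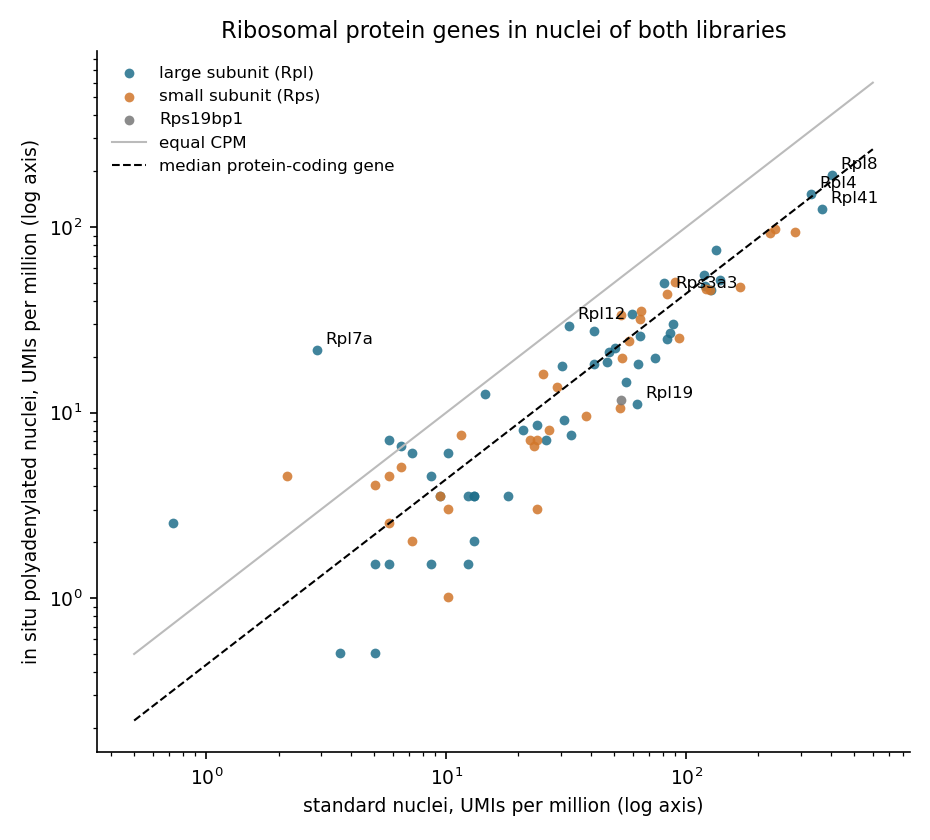
Each point is a member with UMIs in the nuclei of both libraries, placed by its UMIs per 1000000 UMIs (CPM) in the standard (x) and in situ polyadenylated nuclei (y), both on log axes. Most points lie below the line of equal values and near the dashed line of the median protein-coding gene, and Rpl7a (4 and 43 UMIs) stands apart.

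The member that differed most was Rpl7a, which encodes eL8 of the large subunit. It had 43 UMIs in the in situ polyadenylated and 4 in the standard nuclei, a relative log2 of 4.10 (2.64 to 6.04). In the STAR matrix of the same nuclei it had 723 and 25 UMIs, and in the barcodes of 1 to 100 UMIs 196 and 51. The nested Gm23969, given above, had 48 and 0 UMIs in the nuclei. The library with more Rpl7a UMIs was the same in all of these counts. The other members at least 2-fold higher were Rpl11 (14 and 8 UMIs, relative log2 1.49, 0.13 to 2.95), Rpl10 (13 and 9, 1.21, -0.13 to 2.61), Rpl12 (58 and 45, 1.04, 0.46 to 1.64) and Rpl27a (25 and 20, 1.00, 0.09 to 1.92). Apart from Rpl12 these were picked out after their values were seen and rest on few UMIs. The interval of Rpl10 includes 0.

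Among the 49 members with at least 50 UMIs together, the 5 highest were Rpl12, Rplp1, Rps23, Rps4x and Rplp0. Rpl12 encodes uL11, which anchors the ribosomal stalk, and Rplp0, Rplp1 and Rplp2 encode proteins of the stalk itself, the arm that calls translation factors to the ribosome. Rplp2 was not among these 5, with 37 and 65 UMIs in the in situ polyadenylated and standard nuclei (relative log2 -0.13, -0.76 to 0.47). Rplp1 had 54 and 57 UMIs in the in situ polyadenylated and standard nuclei (relative log2 0.60, 0.04 to 1.16) and Rplp0 had 99 and 112 (0.50, 0.10 to 0.90). Rps4x, an X-linked gene of the small subunit, had 66 and 74 UMIs (0.51, 0.01 to 1.01). Rps23, which encodes uS12 at the decoding centre, had 32 and 35 (0.55, -0.19 to 1.28), so its interval spans 0.

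The 5 lowest were Rpl19, Rps15a, Rps19bp1, Rpl36 and Rps26. Rpl19, whose protein eL19 reaches across a bridge between the subunits, had 22 UMIs in the in situ polyadenylated and 86 in the standard nuclei (relative log2 -1.29, -2.04 to -0.60). Rps15a, encoding uS8 of the small subunit, had 21 and 73 (-1.12, -1.89 to -0.40). Rps19bp1 had 23 and 74 (-1.01, -1.75 to -0.32). Rpl36 had 15 and 46 UMIs (-0.94) and Rps26, whose protein lies at the mRNA exit, had 19 and 53 (-0.80). The remaining members at least 2-fold lower, named after their values were seen, were Rpl24 (3 and 17 UMIs), Rps27a (6 and 33), Rpl22l1 (4 and 18) and Rpl35 (7 and 25).

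The UMIs were concentrated in few members, and to the same degree in both libraries. Rpl8, encoding uL2 near the peptidyl transferase centre, had 377 UMIs in the in situ polyadenylated and 562 in the standard nuclei. Rpl41, encoding the shortest ribosomal protein, had 246 and 510. Rpl4, whose protein lines the exit tunnel, had 298 and 459. Rpsa, the small subunit protein also known as the laminin receptor, had 193 and 323. The highest 10 members of each library held 46.7% of its ribosomal protein UMIs in both.

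Among these 4, the relative ratio of the libraries was near 0 for Rpl8 (0.10, -0.09 to 0.29), Rpl4 (0.05, -0.16 to 0.27) and Rpsa (-0.06, -0.33 to 0.20). It was below 0 for Rpl41 (-0.37, -0.60 to -0.15). These 4 intervals lay within 2-fold of the median protein-coding gene.

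Levels are also given per kilobase of the canonical transcript, as CPM per kilobase. A UMI marks a single captured molecule primed on poly(A), so counts need not grow with transcript length, and this order is a description only. By UMIs alone, in the in situ polyadenylated and standard nuclei, Rpl8 (377 and 562) stood above Rpl41 (246 and 510). Rpl4 (298 and 459) likewise stood above Rps15 (183 and 308). On that scale Rpl41, with a transcript of 560 bases, was first in both libraries, at 222.5 in the in situ polyadenylated and 658.5 in the standard nuclei. Rpl8 (1051 bases) followed at 181.7 and 386.6, and Rps15 (545 bases) at 170.1 and 408.6. Rpl8 and Rps15 exchanged places between the libraries, but in each library they differed by less than their counting error. Rps14, whose protein uS11 lies on the platform of the small subunit, was next at 76.5 and 199.5, and Rpl4 (1980 bases) stood at 76.2 and 167.6. In the in situ polyadenylated nuclei Rps14 and Rpl4 differed by less than their counting error.

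Genes near the members in function were compared in the same way. A list of 23 other genes with TOP RNAs held the non-coding Gas5 and Snhg1, and shared Npm1 with the ribosome assembly factors below. Its sum stood at a relative log2 of -0.02 (-0.09 to 0.04), the median gene at -0.12. The list includes Eef1a1, the factor that brings aminoacyl-tRNA to the ribosome (250 and 540 UMIs in the in situ polyadenylated and standard nuclei). It also includes Eef2, the translocation factor (295 and 572). Rack1 and Fau encode ribosomal proteins under other symbols. Rack1 had 244 and 338 UMIs and Fau 32 and 108 (relative log2 -1.08, -1.69 to -0.50), so that Fau was at least 2-fold lower and Rack1 was not.

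The mitochondrial ribosomal protein genes, which encode the separate ribosome of mitochondria, had 1194 and 2199 UMIs, a relative log2 of -0.20 (-0.31 to -0.10). Their median gene was at -0.22, with 10 of 50 at least 2-fold lower and 0 higher. The nuclear genes of oxidative phosphorylation had 1312 and 2658 UMIs (-0.34, -0.44 to -0.24) and a median gene at -0.40, with 11 of 62 at least 2-fold lower. The 34 ribosome assembly factors had 3179 and 4773 UMIs (0.09, 0.03 to 0.16) and a median gene at 0.03, with 5 of 34 at least 2-fold lower. The relative sum of the ribosomal protein genes lay between those of the assembly factors and of the mitochondrial ribosomal protein genes.

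Seen nucleus by nucleus, few ribosomal protein UMIs were found in either library. Each nucleus was thinned to 750 UMIs, for which 3 standard nuclei were too shallow. The median was then 1 ribosomal protein UMI in the in situ polyadenylated and 3 in the standard nuclei, and the means were 1.53 and 3.54. No ribosomal protein UMI remained in 405 in situ polyadenylated nuclei (30.3%) and in 96 standard nuclei (8.57%). Without thinning, the median nucleus held 2 and 4 UMIs, or 0.164% and 0.396% of its total. The lower share of the in situ polyadenylated library was thus spread over its nuclei, as the plot of UMIs per nucleus shows.

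**Figure D2:**
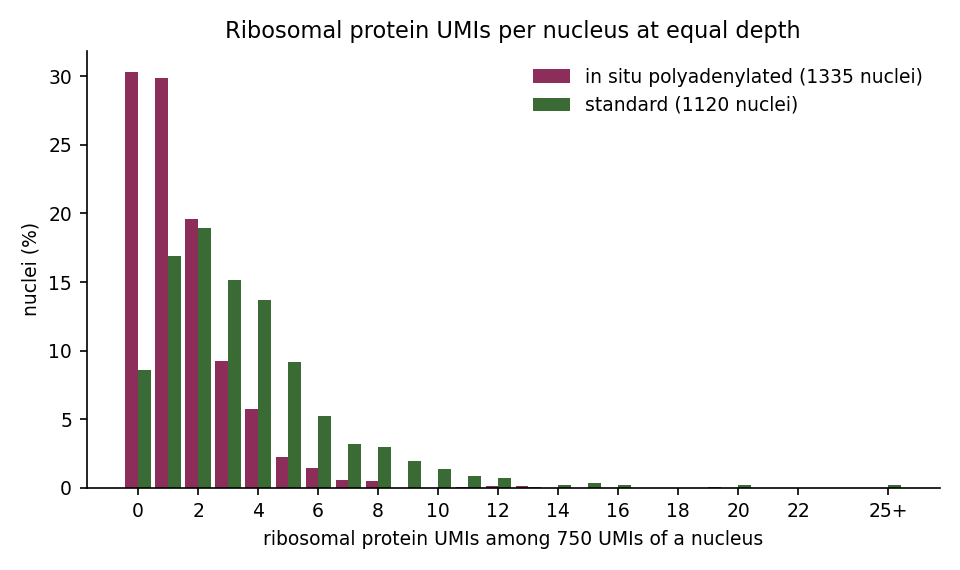
Percent of nuclei (y) by the number of ribosomal protein UMIs among 750 UMIs drawn from each nucleus (x), for 1335 in situ polyadenylated and 1120 standard nuclei, with 25 and above in 1 class. Of the in situ polyadenylated nuclei 30.3% are at 0, against 8.57% of the standard nuclei.

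Single standard nuclei stood far above the others. The highest held 98 ribosomal protein UMIs among 1012 (9.68%), and the next held 2.91% and 2.41%, whereas the highest in situ polyadenylated nucleus held 1.70%. A share above 1% was found in 97 standard and 9 in situ polyadenylated nuclei, and above 2% in 6 and 0. In the highest nucleus Malat1, a nuclear long non-coding RNA, took 3.71% of UMIs, against a median of 10.1% over standard nuclei. Its most numerous mRNA was Ftl1, the ferritin light chain, with 26 UMIs where the library's share gives 0.45. Rpl30, S100a6 and Eef1a1 had 8 each. Without this nucleus the standard share was 0.511% instead of 0.517%.

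The subunits were compared by their summed UMIs. The Rpl genes had 2542 UMIs and the Rps genes 1598 in the in situ polyadenylated nuclei, a ratio of 1.59 (1.49 to 1.70, large over small). In the standard nuclei they had 4236 and 2845, a ratio of 1.49 (1.42 to 1.56). Between libraries the relative log2 was -0.06 (-0.13 to 0.01) for the large and -0.15 (-0.24 to -0.07) for the small subunit. The intervals of both pairs overlapped, so no difference between the subunits was resolved at this depth. The 5 members at least 2-fold higher in the in situ polyadenylated nuclei were all Rpl genes, of 44 Rpl and 26 Rps genes compared. Standard nuclei with over 1500 UMIs had a lower log2 ratio of large to small, 0.41 (0.30 to 0.51), than those with over 750 and up to 1500, 0.69 (0.60 to 0.78), and a higher ribosomal protein share, 0.632% against 0.459%.

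Paralogs were compared with their canonical genes in the nuclei. Rpl3l, the muscle form of Rpl3, had 0 UMIs in both libraries, where Rpl3 had 95 in the in situ polyadenylated and 165 in the standard nuclei. A count of 0 allows up to 3 UMIs. Rpl10l and Rpl39l, germline forms of Rpl10 and Rpl39, and Rps4l were also at 0 in both, beside 13 and 9 UMIs of Rpl10, 14 and 36 of Rpl39 and 66 and 74 of Rps4x. Rpl22l1 was detected at 4 and 18 UMIs beside 59 and 122 of Rpl22, Rps27l at 4 and 10 beside 10 and 9 of Rps27, and Rpl36al at 3 and 12 beside 7 and 13 of Rpl36a. Rpl7l1, which encodes a ribosome assembly factor, had 18 and 43 UMIs, beside 17 and 33 of Rpl7. Outside these counts, Rpl3l had 1 UMI in the STAR matrix of the in situ polyadenylated nuclei, and Rpl10l had 6 UMIs in the in situ polyadenylated and 4 in the standard barcodes of 1 to 100 UMIs.

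Rps3a3 was the exception among the copies. It had 86 UMIs in the in situ polyadenylated and 115 in the standard nuclei, while Rps3a1, the gene with introns, had 2 and 14 and Rps3a2 1 and 0. In the STAR matrix of the same nuclei the order was turned, with 0 and 0 UMIs for Rps3a3 and 30 and 41 for Rps3a1. The coding sequences of the copies differ at 9 bases or fewer, as shown above, and 78.4% of the 31-base words of Rps3a3 and 49.8% of those of Rps3a1 also occur in another annotated transcript. The values of these 3 genes are therefore uncertain one by one. Rps3a3 also lies within Pde4d, a phosphodiesterase gene (chr13:108586482-110092497), which had 28 and 55 UMIs in the kallisto and 2074 and 7519 in the STAR matrix.

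The second comparison set nuclei against barcodes with 1 to 100 UMIs, of which there were 229964 in the in situ polyadenylated and 226358 in the standard library. Such barcodes were taken to lie outside nuclei and are called so below, which was not tested. Of them 148628 in the in situ polyadenylated and 157243 in the standard library held only 1 to 10 UMIs. In the standard library they held 16237 ribosomal protein UMIs, or 0.678% (0.668 to 0.689) against 0.517% in nuclei, a log2 of 0.39 (0.35 to 0.43). In the in situ polyadenylated library they held 8482, or 0.413% (0.404 to 0.421) against 0.211%, a log2 of 0.97 (0.91 to 1.02). The ribosomal protein share was thus higher in these barcodes than in nuclei in both libraries. For the standard library this depended on the ranges compared, since the log2 was 0.10 (0.04 to 0.16) against nuclei with over 1500 UMIs, and barcodes with over 100 and up to 500 UMIs stood at -0.11 (-0.14 to -0.07) against nuclei. Relative to the median protein-coding gene the log2 was 0.33 and 0.88.

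Of 82 members compared in the standard library, 11 were at least 2-fold higher outside nuclei (background 9.1%) and 2 were lower (background 2.39%), with a relative median of 0.34. Of 74 in the in situ polyadenylated library, 38 were higher (background 15.8%) and 0 lower (background 1.28%), with a relative median of 1.02. In the standard library the share of members called thus lay near that of all genes, and in the in situ polyadenylated library above it. In the standard library the relative median was 0.76 for oxidative phosphorylation, 0.62 for mitochondrial ribosomal protein and 0.54 for other TOP genes, and 0.11 for assembly factors. In the in situ polyadenylated library these were 1.33, 0.55, 0.31 and -0.04. Of its oxidative phosphorylation genes 45 of 71 were at least 2-fold higher, so the excess was not particular to the members.

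The in situ polyadenylated excess came with the shallowest barcodes, as the plot by UMI range shows. In its 148628 barcodes of 1 to 10 UMIs, ribosomal protein genes held 3706 of 178850 UMIs, or 2.07% (2.01 to 2.14). The share was 0.254% (0.247 to 0.262) at 11 to 100 UMIs, and between 0.208% and 0.214% in each of the 4 ranges above 100. The standard shares were 0.860% (0.818 to 0.904) at 1 to 10, 0.663% (0.653 to 0.674) at 11 to 100, and 0.481%, 0.464%, 0.459% and 0.632% in the 4 ranges above. At 1 to 10 UMIs the order of the libraries was the reverse of that in nuclei.

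The same barcodes of 1 to 10 UMIs held transcripts that C2C12 should lack. This was seen in 8 genes of the intestinal lining (Apoa1, Apoa4, Apoc3, Fabp1, Fabp2, Defa24, Tff3 and Spink4), chosen after their values were seen. The in situ polyadenylated library held 1404 of their UMIs there, 0.785% (0.745 to 0.827), and the standard library 533, 0.300% (0.275 to 0.326). At 11 to 100 UMIs they summed to 46 and 18 UMIs, and in nuclei to 1 and 0, with 7 and 8 of the 8 genes at 0. The globin genes Hba-a1 and Hbb-bs summed to 255 and 39 UMIs at 1 to 10, to 16 and 2 at 11 to 100, and to 1 and 0 in nuclei. The part of these transcripts in the ribosomal protein share at 1 to 10 UMIs was not tested. At 11 to 100 UMIs, where the intestinal genes were near 0, the ribosomal protein log2 over nuclei was 0.27 (0.21 to 0.33) in the in situ polyadenylated and 0.36 (0.32 to 0.40) in the standard library.

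**Figure D3:**
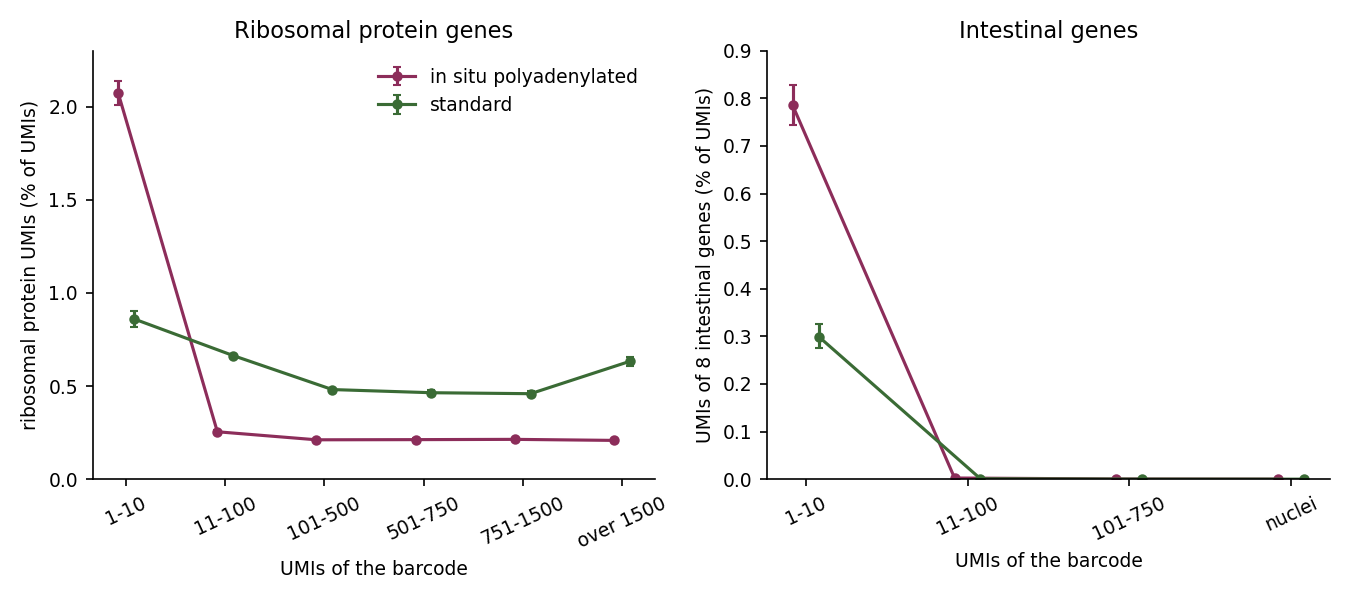
Percent of UMIs (y) from ribosomal protein genes (left) and from 8 intestinal genes (right) by the number of UMIs of the barcode (x), with 95% Clopper-Pearson intervals. Both reach their highest value at 1 to 10 UMIs, 2.07% and 0.785% in the in situ polyadenylated library, and the intestinal genes are near 0 above 10 UMIs.

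By range, 52 of 64 members were at least 2-fold higher in the in situ polyadenylated barcodes of 1 to 10 UMIs than in its nuclei (background 17.3%), and 9 of 66 at 11 to 100 UMIs (background 12.7%). The standard library gave 12 of 60 at 1 to 10 (background 5.81%) and 10 of 80 at 11 to 100 (background 8.85%). The relative medians were 2.82 and 0.17 in the in situ polyadenylated and 0.31 and 0.34 in the standard library. The median protein-coding gene at 1 to 10 UMIs rests on 127 genes in the in situ polyadenylated and 348 in the standard library.

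The members with the highest ratios at 1 to 10 UMIs, among those with at least 50 UMIs in both counts together, are named after their values were seen. Rpl26 had 57 UMIs there and 3 in nuclei of the in situ polyadenylated library (relative log2 7.21), Rpl35 68 and 7 (6.25), Rps29 133 and 16 (6.02), Rpl39 92 and 14 (5.68), Rps28 81 and 14 (5.50) and Rplp2 149 and 37 (4.98). The highest of the standard library were Rpl39 with 24 UMIs at 1 to 10 and 36 in nuclei (2.03), Rps29 with 24 and 37 (1.99), Rps28 with 20 and 33 (1.89), Rpl38 with 25 and 42 (1.87) and Rps21 with 47 and 80 (1.85). Rpl39, Rps29 and Rps28 are named for both libraries. The members named for the in situ polyadenylated library each had under 50 UMIs in nuclei. They thus reached the minimum only through the barcodes where they are high, and the overlap of the 2 lists is no support for a shared pattern.

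**Figure D4:**
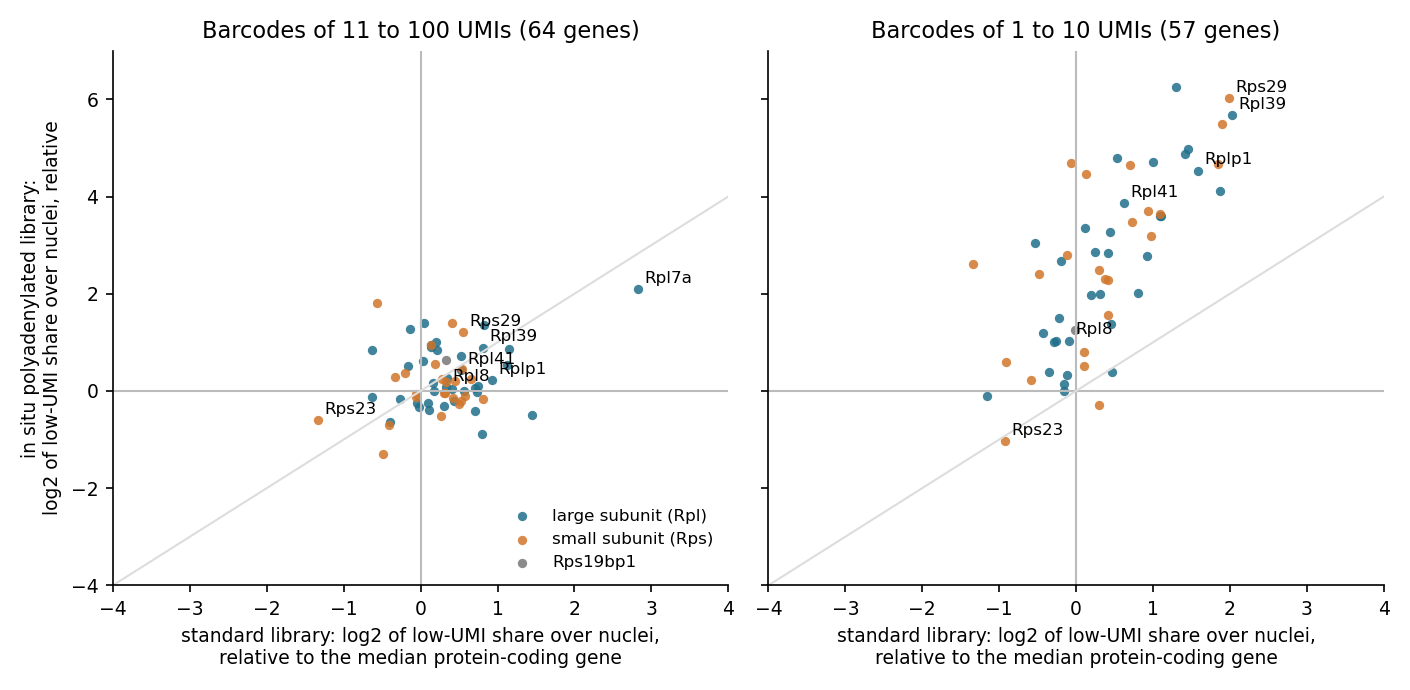
Each point is a member with counts in both libraries, placed by its log2 share in low-UMI barcodes over nuclei in the standard (x) and in situ polyadenylated library (y), relative to the median protein-coding gene. At 11 to 100 UMIs (left, 64 genes) points scatter around 0, and at 1 to 10 UMIs (right, 57 genes) most lie above the line of equal values.

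Over the whole range of 1 to 100 UMIs, the members with the highest relative ratio in the standard library, among 64 with at least 50 UMIs, were Rpl7a and Rpl15. Rpl7a had 51 UMIs outside and 4 in nuclei (relative log2 2.82, 1.38 to 4.75). Rpl15, encoding eL15 of the large subunit, had 80 and 7 (2.66, 1.55 to 4.02). Rpl22l1 (74 and 18, 1.19), Rpl28 (116 and 29, 1.15) and Rps25 (50 and 13, 1.09) followed. Rpl7a was also high at 11 to 100 UMIs of the in situ polyadenylated library, with 183 UMIs against 43 in nuclei (2.09).

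Rps23, the lowest member of the standard library, had 23 UMIs outside and 35 in nuclei of the standard library (relative log2 -1.46, -2.28 to -0.66) and 23 and 32 in the in situ polyadenylated library (-0.62, -1.46 to 0.20). It was thus relatively more frequent in standard nuclei, against the trend of the set, while the interval of the other library spans 0. In the standard library Rpl12 (54 and 45, -0.59), Rps27a (41 and 33, -0.54) and Rpl18 (92 and 66, -0.37) were also among the lowest 5, and in the other library Rps3a3 (69 and 86, -0.46) was.

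The most abundant members differed in this respect. Their in situ polyadenylated values pool 1 to 100 UMIs and so include the barcodes of 1 to 10 UMIs, where most members were high. Rpl41 was higher outside nuclei in both libraries, at a relative log2 of 0.55 (0.40 to 0.70) in the standard and 1.54 (1.33 to 1.75) in the in situ polyadenylated library. Rpl8 was higher by 0.31 (0.17 to 0.46) and 0.26 (0.06 to 0.45). Rpl4 was at 0.33 (0.17 to 0.50) and -0.19 (-0.42 to 0.05), and Rpsa at -0.09 (-0.29 to 0.11) and -0.06 (-0.35 to 0.23). Rpsa thus lay near the median protein-coding gene in both. The ratio of summed large to small subunit UMIs outside nuclei was 1.77 (1.69 to 1.85) in the in situ polyadenylated and 1.67 (1.62 to 1.73) in the standard library, against 1.59 and 1.49 in nuclei. By single genes the order was the other way, with relative medians for low-UMI barcodes over nuclei of 0.32 for the large and 0.38 for the small subunit in the standard library and 0.93 and 1.19 in the in situ polyadenylated library. At 1 to 10 UMIs of the in situ polyadenylated library the log2 ratio of large to small was 0.66 (0.57 to 0.76), beside 0.67 (0.58 to 0.76) in its nuclei. At 11 to 100 UMIs this ratio was 0.95 (0.86 to 1.03), above the interval of the nuclei, and from over 100 to 500 it was 0.82 (0.73 to 0.92). In the standard library it was 0.74 (0.70 to 0.79) at 1 to 100 UMIs, beside 0.69 (0.60 to 0.78) in the 930 nuclei of up to 1500 UMIs and 0.41 (0.30 to 0.51) in the 192 nuclei above. The large subunit was thus relatively higher at 11 to 100 UMIs of the in situ polyadenylated library than in its nuclei. No shift between nuclei and low-UMI barcodes held across all these settings.

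The third comparison set STAR against kallisto in the same nuclei, of which the STAR matrices held 1328 in situ polyadenylated and all 1123 standard ones. The same molecules are counted in both, so the 2 counts are not independent and the intervals of their ratios are descriptive. In the standard nuclei STAR gave 12885 ribosomal protein UMIs where kallisto gave 7155, a ratio of 1.80 (1.75 to 1.85), where the ratio was 4.51 for all UMIs and 4.71 for the median protein-coding gene. In the in situ polyadenylated nuclei it gave 9673 against 4152, a ratio of 2.33 (2.25 to 2.42), beside 5.86 for all UMIs and 3.90 for the median protein-coding gene. Ribosomal protein genes thus gained fewer UMIs under STAR than other genes in both libraries. For comparison the standard ratio was 3.39 for the other TOP genes, 4.21 for mitochondrial ribosomal protein genes, 4.49 for oxidative phosphorylation genes and 3.41 for ribosome assembly factors.

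Of 82 members compared in the standard nuclei, 49 were at least 2-fold below the median protein-coding gene (background 7.04%) and 5 above (background 34.1%). Of 79 in the in situ polyadenylated nuclei, 23 were below (background 3.56%) and 9 above (background 40.8%). The relative medians were -1.24 and -0.48. The sources used here do not state how STAR counts were made from alignments, with or without introns, or how its barcodes were picked.

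**Figure D5:**
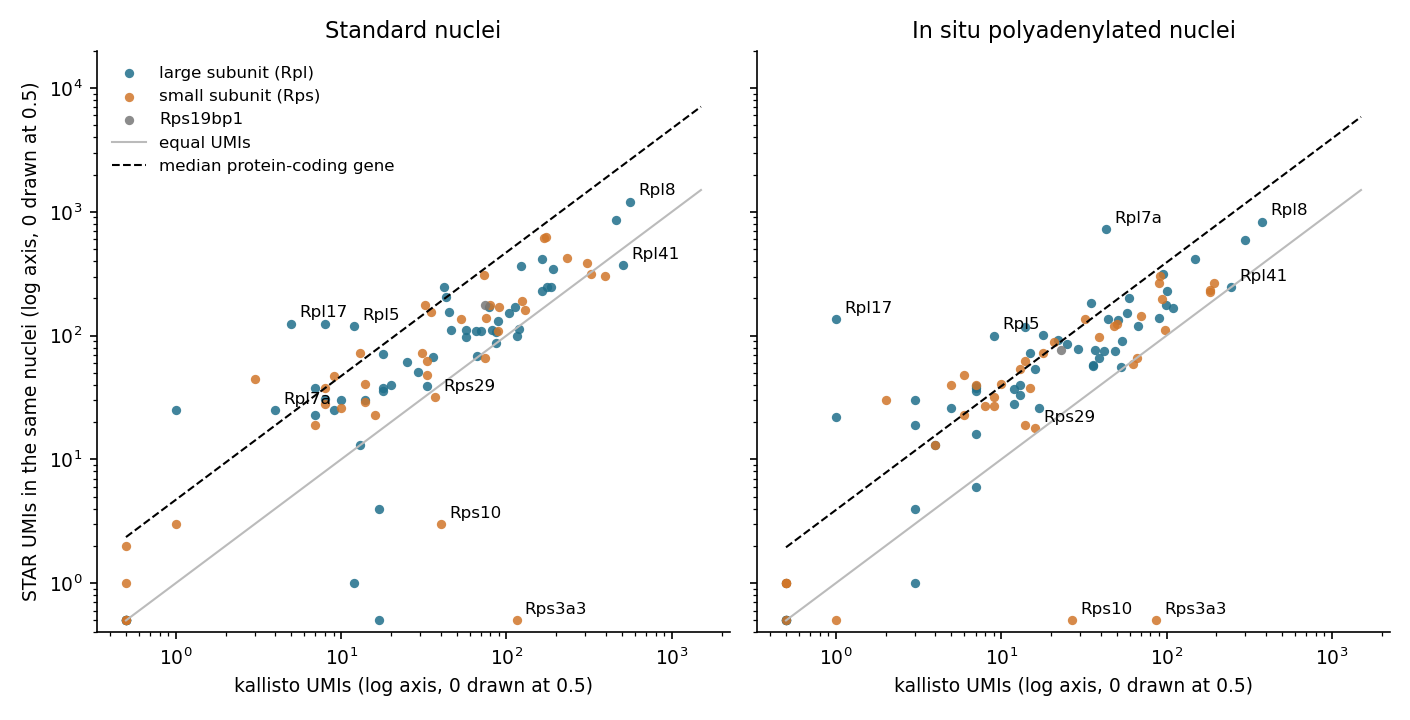
UMIs of each member in the same nuclei by kallisto (x) and STAR (y), both on log axes with 0 drawn at 0.5, for standard (left) and in situ polyadenylated nuclei (right). Most members lie between the line of equal UMIs and the dashed line of the median protein-coding gene, with Rpl17 and, in the in situ polyadenylated nuclei, Rpl7a above it and Rps3a3 and Rps10 at the bottom.

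At the low end of the members with at least 50 UMIs, apart from Rps3a3, stood Rpl41, Rps29 and Rpl30 among others. Rpl41 had 510 kallisto and 370 STAR UMIs in the standard nuclei, a ratio of 0.725 (0.633 to 0.831). Rps29 had 37 and 32 and Rpl30 115 and 100, ratios of 0.865 and 0.870. Rpl41 thus had fewer UMIs under STAR although the nuclei had 4.51 times as many in all. In the in situ polyadenylated nuclei the ratio of Rpl41 was 1.01 (0.841 to 1.21).

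At the high end of the standard nuclei, among the 64 members with at least 50 UMIs in both counts together, stood Rpl17, Rpl11, Rpl5, Rpl38 and Rps25. Of these, Rpl17, Rpl11 and Rpl5 were at least 2-fold above the median protein-coding gene, as were 2 scarcer members, Rpl27 with 1 kallisto and 25 STAR UMIs and Rps6 with 3 and 45, named after their values were seen. Rpl11 and Rpl5 encode the proteins that join 5S ribosomal RNA in the particle that can bind MDM2. In the standard nuclei Rpl11 had 8 kallisto and 124 STAR UMIs, Rpl5 12 and 119, and Rpl17, encoding uL22 at the exit tunnel, 5 and 125. Rpl38 had 42 and 246 and Rps25 13 and 73. In the in situ polyadenylated nuclei Rpl17 had 1 and 135 UMIs, Rpl11 14 and 118 and Rpl5 9 and 100. These 3 genes lay below the median member by kallisto (35.5 UMIs in the standard and 17.5 in the in situ polyadenylated nuclei) and above it by STAR (73 and 58.5).

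Some members nearly vanished under STAR, named here after their values were seen. Rps10 had 40 kallisto and 3 STAR UMIs in the standard nuclei, Rpl24 17 and 0, and Rpl36al 12 and 1. Exons of each overlap another annotated gene, Gm49804 for Rps10, Gm28037 for Rpl24 and Gm49383 for Rpl36al. Exons of Rpl13a and Rpl19 also overlap other genes, and these had 103 and 86 kallisto and 153 and 87 STAR UMIs, while Rpl29, with no such overlap, had 17 and 4. By gene bounds, the overlapping genes of Rps10 and Rpl24 span the 3′ end of the member, and those of Rpl13a, Rpl19 and Rpl36al do not. The part of the overlap in the counts was not tested. The share of a member's 31-base words found in other transcripts had a Spearman correlation with its STAR over kallisto ratio of 0.06 across 81 members in the standard and 0.17 across 78 in the in situ polyadenylated nuclei. The number of intron bases had one of 0.22 and 0.13. These points share their libraries and are no replicates. Both were weak and are given as descriptions.

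The comparison of the libraries was repeated on STAR counts of the same nuclei. The ribosomal protein share was 0.0838% in the in situ polyadenylated and 0.207% in the standard nuclei, a log2 of -1.30 (-1.34 to -1.26), close to that from kallisto. The median protein-coding gene, however, was at -1.92 in the STAR matrix, so the relative sum was 0.62 (0.58 to 0.66), where kallisto gave -0.10. The STAR median rests on 7752 genes and the kallisto median on 2117, so they are not the same genes counted in 2 ways. Of 79 members, 22 were at least 2-fold higher in the in situ polyadenylated nuclei (background 15.9%) and 0 lower (background 2.81%), with a relative median of 0.62. Against the median protein-coding gene, the direction of the set thus depended on the matrix and on the genes behind that median. Against the summed share of all protein-coding genes, the set was lower in both matrices. That summed share stood at a log2 of -0.93 by kallisto and -0.29 by STAR, where the set stood at -1.29 and -1.30. The relative sum was 0.81 (0.76 to 0.86) for the large, 0.65 (0.60 to 0.70) for the large without Rpl7a, and 0.30 (0.23 to 0.36) for the small subunit.

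Single members in the STAR matrix ranged from Rpl7a, with 723 UMIs in the in situ polyadenylated and 25 in the standard nuclei (relative log2 5.89, 5.31 to 6.53), to Rps15a with 88 and 310 (-0.78, -1.14 to -0.44). Rpl27a (86 and 40, 2.14) and Rpl10a (417 and 247, 1.79) came next to Rpl7a among members with at least 50 UMIs (Rpl29, at 3.03, rests on 16 and 4), and Rps18 (54 and 176, -0.67) preceded Rps15a. Rpl7a was highest and Rps15a low in both matrices. The ratio of large to small in STAR was 2.17 (2.08 to 2.27) in the in situ polyadenylated and 1.52 (1.47 to 1.57) in the standard nuclei. Over all deposited STAR barcodes that passed the filter on the STAR counts, it was 2.19 with Rpl7a and 1.93 without it in the in situ polyadenylated library.

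The nested snoRNAs were the RNAs of these loci that differed most between the libraries. The 60 snoRNA genes lay within 30 members. In the nuclei treated with the enzyme 31 of them were detected, with 819 UMIs in all, and in the standard nuclei 5, with 8 UMIs, a log2 ratio of their shares of 6.16 (5.18 to 7.38). Snord72 had 144 and 0 UMIs in the in situ polyadenylated and standard nuclei, Snord43 135 and 0, Snord35a 67 and 1, and Gm23969 and Snord42a 48 and 0 each. In the barcodes of 1 to 100 UMIs the 60 genes summed to 4657 and 34 UMIs. In the STAR matrix they were at 0 in both libraries.

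The host genes themselves lay near the other members in the kallisto matrix. In the kallisto nuclei the 30 host genes stood at a relative log2 of -0.06 (-0.15 to 0.03) and the 63 other members, without Rps19bp1, at -0.12 (-0.19 to -0.05). Rpl37, host of Snord72, had 36 UMIs in the in situ polyadenylated and 87 in the standard nuclei, and Rpl3, host of Snord43, had 95 and 165. In the STAR matrix, where no snoRNA was counted as such, hosts stood at 0.95 (0.89 to 1.01) and the other members at 0.41 (0.36 to 0.46). Rpl7a was one of the hosts, with 723 of the 4310 STAR UMIs they held in in situ polyadenylated nuclei, and without it the hosts stood at 0.70 (0.63 to 0.76). The hosts were thus higher than the other members in the STAR matrix with and without Rpl7a, and the intervals of both sets overlapped in the kallisto matrix.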

How the data were processed

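Nuclei of C2C12 myoblasts were profiled in 1 library with and 1 library without in situ polyadenylation (Chromium v3). Per the labels, the authors' processing used cutadapt 3.4, STAR 2.7.10a, kallisto 0.48.0 and bustools 0.41.0 with the GRCm39 build, and the study's methods name the GENCODE M28 annotation. The deposited kallisto matrices hold estimated counts per gene and barcode, which need not be whole numbers, with no normalization. The deposited STAR matrices hold whole-number counts (UMIs) for a subset of the barcodes. The counting mode of STAR and its choice of barcodes are not given in the sources used here.

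The rule for the members selected 94 gene symbols. Members and gene lists were chosen with earlier results of these data known. Gene positions, biotypes and sequences were read from GRCm39 with the annotation supplied here, in which 54749 of 55414 genes were matched. Nuclei were barcodes with over 750 kallisto UMIs and under 5% mitochondrial UMIs, and low-UMI barcodes were those with 1 to 100. Doublets were not removed, and no cells were clustered. Counts were summed over barcodes, rounded for printing, and divided by the total UMIs of the set. Ratios are log2 ratios of these shares with exact conditional Poisson intervals (95%), and shares have Clopper-Pearson intervals. A count of 0 was taken as compatible with up to 3, and folds against 0 used that floor. The median protein-coding gene was taken over genes with at least 50 UMIs in each count. Single genes were compared from 20 UMIs in both counts together and called at 2-fold. Named genes were the 5 members with the most UMIs and, per comparison, the 5 highest and 5 lowest ratios among members with at least 50 UMIs in both counts together. Other names were chosen after their values were seen. Some genes that meet the rule are not reported by name here. The ratio script was tested on simulated data. With 1 library per group no test between conditions was possible. Python 3.11.15, numpy 2.4.6, scipy 1.17.1, pandas 2.3.3 and matplotlib 3.10.9 were used.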

Additional observations from a re-analysis of the deposited data

Results flagged for a closer look

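Rps20 and Rpl21, a small and a large subunit gene, lay on opposite sides of the median protein-coding gene in the 2 libraries when low-UMI barcodes were set against nuclei. Rps20 stood at a relative log2 of 0.78 (0.27 to 1.30) in the in situ polyadenylated and -0.34 (-0.67 to -0.0043) in the standard library. Rpl21 stood at 1.69 (0.44 to 3.14) and -1.22 (-2.33 to -0.13). These genes were picked out of the 94 members because their intervals lay on opposite sides of that median. The in situ polyadenylated values pool barcodes of 1 to 10 UMIs, where the median member stood at 2.82, with those of 11 to 100. At 11 to 100 UMIs the median member stood at 0.17. The difference between the libraries was not tested, since each condition had 1 library.

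The other values come from genes outside the ribosomal protein set. The 8 intestinal genes summed to 1404 UMIs in the in situ polyadenylated and 533 in the standard barcodes of 1 to 10 UMIs, where nuclei held 1 and 0. The snoRNA genes nested in members summed to 819 UMIs in the in situ polyadenylated and 8 in the standard nuclei.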

How the results depend on the processing

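Of 62 recomputed values, 30 stayed within the interval of the main value, 29 left it and 3 changed sign. For the median member that interval was the median of the single-gene bounds (-1.86 to -0.74). It is not the counting error of a median over genes, so staying within it says little. The log2 share of ribosomal protein genes between libraries (-1.29) was -1.23 with nuclei from 500 UMIs, -1.60 from 1500, -1.19 without the 5% of nuclei with most UMIs, -0.84 without rRNA and mitochondrial UMIs in the total, -1.19 as a mean over nuclei, -0.10 relative to the median protein-coding gene and, added after seeing the data, 0.62 on that scale in the STAR matrix. The median member (-1.41) was -0.22 on the relative scale and 0.61 on it in the STAR matrix. Large over small (1.59 in situ polyadenylated, 1.49 standard) was 2.19 and 1.59 in the STAR matrix, 1.93 and 1.59 there without Rpl7a (added), and 1.33 in standard nuclei from 1500 UMIs. Low-UMI barcodes over nuclei in the in situ polyadenylated library (0.97) gave 1.21 without rRNA and mitochondrial UMIs, 3.30 at 1 to 10 UMIs, 0.27 at 11 to 100, 0.0033 from over 100 to 500 and 0.88 on the relative scale (added). The standard library (0.39) gave 0.46 against nuclei from 500 UMIs, 0.10 from 1500, 0.51 without the deepest 5%, 0.73 at 1 to 10 UMIs, -0.11 from over 100 to 500 and 0.33 on the relative scale (added). STAR over kallisto in the in situ polyadenylated library (2.33) was 2.19 from 1500 UMIs, 2.43 without the deepest 5% and 2.50 over all STAR barcodes. For the standard library (1.80) it was 1.90 from 500 UMIs, 1.53 from 1500, 1.92 without the deepest 5% and 2.06 over all STAR barcodes. The causes of these moves were not tested. No paired analysis was possible because there was 1 library in each group, and no replicate could be left out. Members under 20 UMIs in both counts together were too shallow to compare.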
